A study of Mus musculus with 8 samples.

Results

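The genes described here are 46 mouse genes of glutathione metabolism and of the NRF2 antioxidant response, picked by symbol from the 39179 genes counted in each library. They comprise 23 glutathione transferases, 4 genes of glutathione synthesis and cystine uptake, 6 of glutathione reduction and glutathione peroxidases, 4 of the thioredoxin system, 3 further detoxification targets, the regulators Nfe2l2 and Keap1, and 4 enzymes of the pentose phosphate pathway. RNA sequencing was done on iKPC cells, which are lines from mouse pancreatic ductal adenocarcinoma. Each of 4 lines, numbered 1 to 4 and named as biological replicates, was sequenced once with overexpressed WT-USP21 and once with overexpressed ED-USP21, giving 8 libraries and 4 of each construct. USP21 is a deubiquitinating enzyme, and the labels leave ED unexplained. All 8 libraries share the alleles ROSA_rtTA (the doxycycline-dependent activator, from the Rosa locus) and p48-Cre (Cre expressed from a pancreatic driver). The strain background is FVB/C57Bl6 for lines 1 and 2 and C57BL/6 for lines 3 and 4. The labels give neither the ages of the mice nor whether the cultures had doxycycline, each line is a single line, and cells without a construct were not analysed here.

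NRF2, the transcription factor encoded by Nfe2l2, is held at a low level by KEAP1, an adaptor that hands it to a ubiquitin ligase. Electrophiles and oxidants modify KEAP1, so that NRF2 accumulates, pairs with a small MAF protein and activates genes that carry an antioxidant response element (ARE). Its targets make glutathione, conjugate it to electrophiles, reduce oxidised glutathione and thioredoxin, and supply NADPH.

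The ARE is the sequence through which NRF2 acts, so the promoters of the members were searched for its core, TGACNNNGC, on both strands. RefSeq promoter windows (assembly GRCm38.p6, 250 bases before to 50 bases after each start) were found for 41 of the 46 members. The core was present in 11 of these 41 genes (26.8%), against 3781 of 27025 genes (14%) with such windows. The members had 56 windows between them, and 19.6% of these windows held the core, against 12.4% of all windows. A letter match is a description of the window and not a binding site, and AREs outside these windows were not searched. The 11 genes were Gsta3, Gstm5, Gstm7, Mgst1, Gclm, Txnrd1, Srxn1, Prdx1, Nfe2l2, G6pdx and Pgd. An AP-1 site, TGACTCA, was present in 6 of the 41 members (14.6%) and in 5.95% of all genes, and overlapped an ARE core only in Prdx1.

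Stretches around the match are printed for 5 of the genes with a core. Gclm, Mgst1, Gstm7 and Nfe2l2 passed a test described further on. Gsta3 is printed without such a test, and Srxn1, which also passed one, is not printed. Each is given 5′ to 3′ on the strand of its gene, with the matched core in capitals; in Gclm and Mgst1 the core lies on the opposite strand, so that its complement is read. The first base of the match lies 134 bases before the start in Gclm (chr3:122245398-122245456, plus strand), 56 bases in Mgst1 (chr6:138140446-138140504, plus), 121 bases in Gsta3 (chr1:21240439-21240497, plus), 129 bases in Gstm7 (chr3:107931710-107931768, minus) and 240 bases in Nfe2l2 (chr2:75704870-75704913, minus).
Gclm: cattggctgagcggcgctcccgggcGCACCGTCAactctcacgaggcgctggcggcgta
Mgst1: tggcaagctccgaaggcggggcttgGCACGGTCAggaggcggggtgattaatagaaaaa
Gsta3: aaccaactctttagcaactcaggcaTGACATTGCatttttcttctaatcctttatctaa
Gstm7: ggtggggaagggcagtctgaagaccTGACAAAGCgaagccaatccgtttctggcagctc
Nfe2l2: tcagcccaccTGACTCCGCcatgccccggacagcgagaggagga

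Gene counts per library ran from 72828184 to 107551210, and the members took 0.510% to 0.650% of them. Usp21 reads, from the cell and the construct together, stood at 147, 944, 539 and 941 CPM (gene counts scaled to a common library total) with WT-USP21 in lines 1 to 4 and at 1658, 3133, 1662 and 2721 CPM with ED-USP21, so the constructs differ in Usp21 amount as well as in kind. This difference was itself larger in line 1, at -3.50 on the log2 scale, than in lines 2 to 4, at -1.73, -1.62 and -1.53. Its part in the contrast of line 1 with the other lines was not tested. The summed level of 7 ductal epithelial markers was 9775 to 11298 CPM in line 1 and 6247 to 8403 CPM in lines 2 to 4, with 6 of the 7 above 1 CPM in some library. Epcam, 1 of the 7, averaged 4.37 CPM in line 1 and 0.17 CPM in lines 2 to 4. Single ductal markers also moved with the contrasts used here. Krt19 was lower with WT-USP21 in lines 2 to 4 (-0.58, edgeR adjusted p = 0.0261), and 2 of 6 tested, Krt19 (1.004, adjusted p = 0.0337) and Cdh1 (1.22, adjusted p = 0.0307), had a construct difference higher in line 1. In the level of line 1, 3 of 7 were called higher and 1 lower, where 18.6% and 13% of all genes were. Over all genes, 2.06% were called lower with WT-USP21 in lines 2 to 4, and 3.19% had a construct difference called higher in line 1. Summed markers of other cells were low in line 1 and in lines 2 to 4: 0.0385 to 0.141 and 0.0298 to 0.129 CPM for acinar cells, 7.26 to 7.84 and 4.78 to 15.0 CPM for fibroblasts, 0.530 to 2.32 and 0.351 to 0.511 CPM for endothelium, and 4.99 to 6.02 and 9.66 to 15.8 CPM for leukocytes. Pnlip, Ptf1a, Dcn and Lum had no reads in any library, and the part of these markers in the results was not tested. After the group means were taken out, a library of line 2 and one of line 4 correlated across genes at 0.474, above the 0.347 between both libraries of line 4; whether lines 2 and 4 are independent was not tested.

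By edgeR, no member passed the test of WT-USP21 against ED-USP21 over all 4 lines. In a test of whether the construct difference of line 1, a single pair of libraries, differed from that of lines 2 to 4, 10 members, namely 7 transferases, the glutathione synthesis genes Gclc and Gss and the cystine transporter Slc7a11, were higher with WT-USP21 in line 1 relative to lines 2 to 4, and the peroxidase Gpx8 was lower. Over all genes 3.19% were called higher in this way and 3.08% lower (6.27% together), and without line 2 neither a member nor any other gene was called. Construct differences are log2 values of WT-USP21 minus ED-USP21, tested with edgeR's quasi-likelihood test, and a gene is called at an adjusted p (Benjamini-Hochberg over all genes tested) under 0.05. Of the 46 members, 41 had enough reads for this test. With no term for the line, 0 of 41 were called, with 7 at an unadjusted p under 0.05, while 0% of 16192 genes were called and 392 had an unadjusted p under 0.05; DESeq2 and limma also called 0 members. With the line as a block, edgeR and limma called 0 of 41, with 9 at an unadjusted p under 0.05 in edgeR, and 0.0247% of all genes were called. DESeq2 called 3 in that design, all lower with WT-USP21: Nqo1, Srxn1 and Gsta2. The median member stood at -0.15 in the blocked fit, against -0.00 over all genes, and 32 of the 41 were negative, as were 8304 of the 16192 genes. In such bulk libraries, fewer cells with a transcript and less of it per cell cannot be told apart. Because 1 library was made of each construct in a line, differences within a line have no replicate error.

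Within single lines the transferases were mostly higher with WT-USP21 in line 1 and mostly lower with it in the other lines. Their median difference of log2 CPM, over the 19 tested, was 0.52, -0.27, -0.41 and -0.75 in lines 1 to 4 in turn. All 41 members together had medians of 0.13, -0.17, -0.22 and -0.39. In line 1, 6 members were at least 2-fold higher with WT-USP21 and 0 lower, where 6.06% and 3.29% of all genes were (9.36% in either direction). The 6 were Gsta3, Gstm2, Gstm4, Gstm7, Gstt2 and Gstt3. Of these, Gsta3 had 5 reads in line 1 and Gstt2 had 9, none of them with ED-USP21, so their differences rest on few reads. The counts were 1 higher and 4 lower in line 2 (3.31% and 4.92% of all genes, 8.23% together), 0 and 2 in line 3 (5.01% and 2.2%, 7.21% together), and 1 and 7 in line 4 (5.27% and 5.34%, 10.6% together). The members 2-fold lower in lines 2 to 4 were transferases in every case, and the 1 that was 2-fold higher in lines 2 and 4 was Gpx8. Only 8 of the 41 (19.5%) moved the same way in all 4 lines, near the 16.8% of all genes that did. All 8 were lower with WT-USP21, and 0 higher, where 7.73% of all genes were lower in all 4 lines and 9.03% higher: Gsta2, Gclm, Txnrd1, Srxn1, Prdx1, Nqo1, Keap1 and Pgd.

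**Figure D1:**
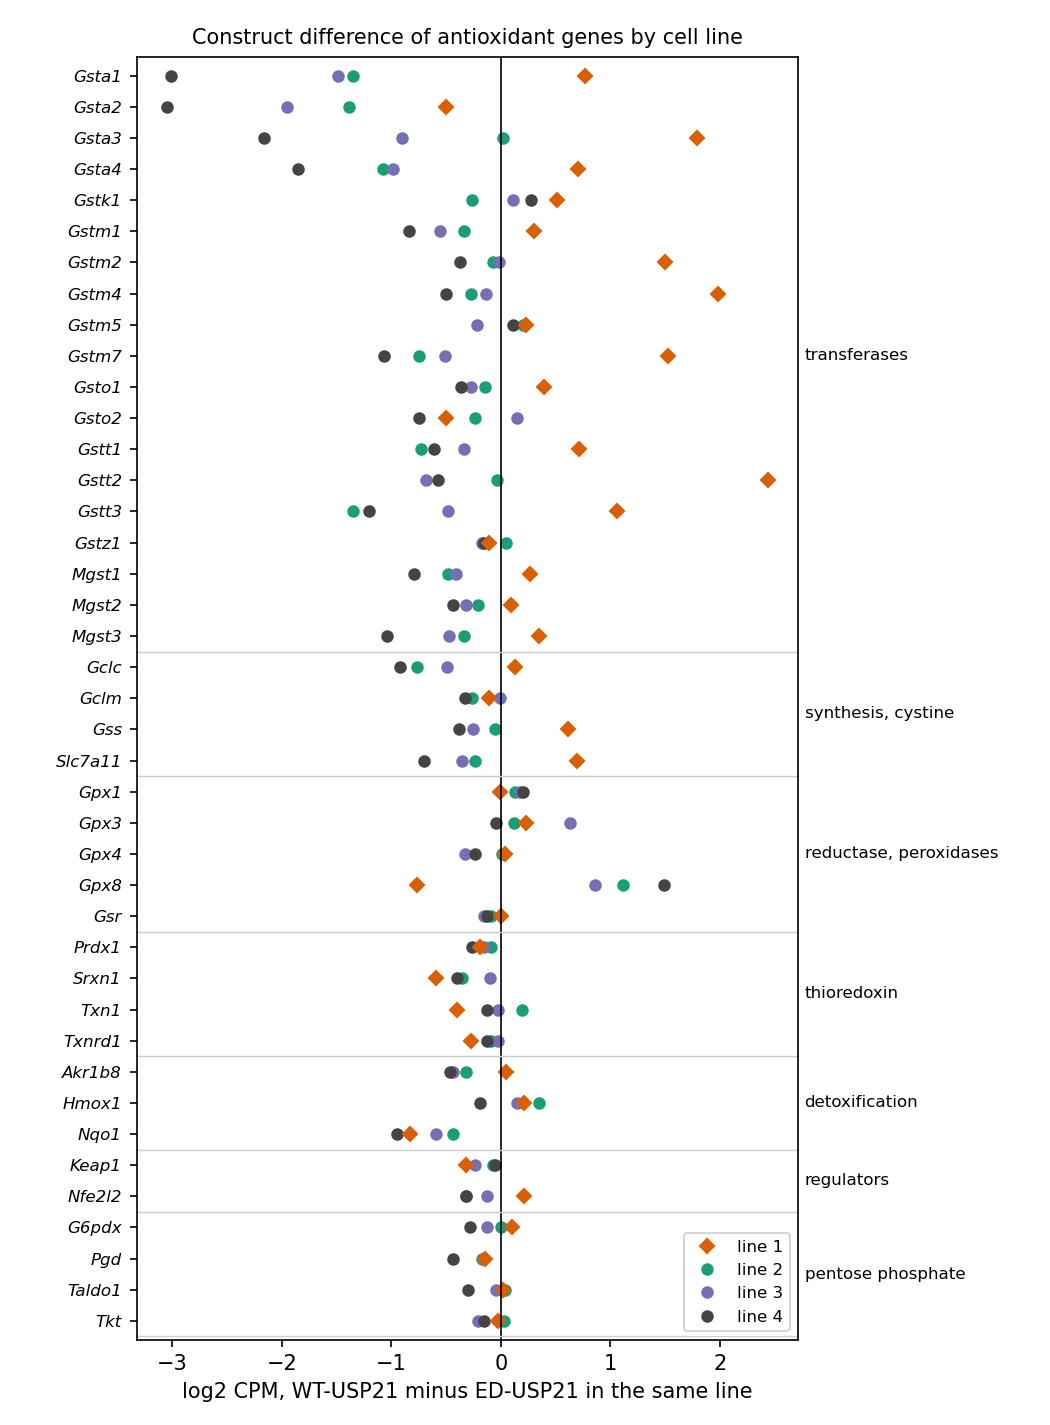
Difference of log2 CPM, WT-USP21 minus ED-USP21, within each cell line (horizontal axis) for the 41 tested members, grouped by role; each mark is 1 line and has no error, since each is a single pair of libraries. Line 1 (diamonds) lies to the right of zero for 16 of 19 transferases, while lines 2 to 4 (circles) lie mostly to the left, and Gpx8 is turned the other way. Over all genes, 8326 of 16192 were higher with WT-USP21 in line 1.

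A further 3 tests are used for each gene below. The first takes the construct difference within lines 2 to 4 alone (line as a block; added after the data were seen), in which 4.57% of 16326 genes were called, 2.51% higher and 2.06% lower. The next tests whether the construct difference of line 1 differs from that of lines 2 to 4, over 16192 genes; line 1 has 1 pair of libraries there, so the spread comes from lines 2 to 4 and line 1 is assumed to vary like them. The last compares the level of line 1 with lines 2 to 4 after summing both libraries of each line, so that 1 line stands against 3 and is assumed to vary like them; 31.6% of 19125 genes were called, 18.6% higher and 13% lower. In lines 2 to 4, 9 of 42 members tested (21.4%) were called, 1 higher and 8 lower, with a median of -0.26 against 0.00 over all genes. In the test of line 1's construct difference against that of lines 2 to 4, 11 of 41 (26.8%) were called, 10 with line 1 higher and 1 with it lower, and the median was 0.41 against 0.00. These first 2 sets of calls rest on line 2: without it, 0 members were called in either test, where edgeR called 11 genes and 0 genes over the whole table, and without line 4 the counts were 1 higher and 3 lower in the first, and 5 higher and 1 lower in the other. Without line 3 the first test gave 1 higher and 14 lower. Calls over all genes without line 3 or line 4 are not given here, so these counts are not a result about the members. In the level of line 1, 26 of 42 (61.9%) were called, 9 higher and 17 lower; the share called higher is near that of all genes. The median was -0.25, against -0.04 over all genes. Both libraries of line 1 lay above all 6 of lines 2 to 4 for 7 members (16.7%; 24.2% of all genes) and below them for 15 (35.7%; 22.5% of all genes). With the WT-USP21 libraries alone, 6 members were called higher and 8 lower, and Gclc, Nfe2l2, Gsta1 and Gstm2 were no longer among them. Of the 42, 3 transferases (Gsta3, Gstm3 and Gstt2) had enough reads only through lines 2 to 4, so a low level in line 1 was built into their being tested. Without these 3, 24 of 39 were called, 9 higher and 15 lower.

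The alpha-class transferases, which detoxify lipid peroxidation products, gave 3 of the 8 members called lower with WT-USP21 in lines 2 to 4, where 2.06% of all genes were. Gsta4, whose enzyme conjugates 4-hydroxynonenal, was measured in lines 1 to 4 at 221, 172, 188 and 127 CPM with WT-USP21 and at 136, 362, 371 and 459 CPM with ED-USP21. Within lines 2 to 4 the constructs did not overlap, and line 1 had the order reversed. The difference in lines 2 to 4 was -1.30 ± 0.17 (SE; adjusted p = 0.0159), and line 1 differed from it by 2.003 ± 0.33 (adjusted p = 0.0249), a call lost with a robust estimate of the spread. Gsta1 stood at 9.42, 13.3, 12.0 and 6.89 CPM with WT-USP21 and at 5.53, 34.0, 33.8 and 55.6 CPM with ED-USP21. It was again lower with WT-USP21 in lines 2 to 4, by a log2 difference of -1.93 ± 0.32 (adjusted p = 0.0281), and the 2.70 ± 0.64 by which line 1 differed missed the threshold (adjusted p = 0.0648). Gsta2 was barely detected, at 0.163, 0.228, 0.231 and 0.105 CPM with WT-USP21 and at 0.241, 0.635, 0.957 and 1.03 CPM with ED-USP21, from 310 reads in all. Here line 1 was also lower with WT-USP21, and lines 2 to 4 gave -2.21 ± 0.44 (adjusted p = 0.0483). Gsta1 and Gsta2 share 89.7% and 64.2% of their 50-base transcript stretches with other genes, each other among them, so their reads may be split between them; Gsta4 shares none. Gsta3 had 5 reads in line 1 and none of them with ED-USP21, while its levels in lines 2 to 4 were 1.42, 0.944 and 0.256 CPM with WT-USP21 and 1.40, 1.78 and 1.22 CPM with ED-USP21. Since Gsta3 was tested only through lines 2 to 4, its low level in line 1 is given as reads, without a test.

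Line 1 also held less RNA of Gsta1 and Gsta4 when its libraries were summed. Gsta1 was lower there by -1.72 ± 0.21 (adjusted p = 0.00270), although its WT-USP21 library lay within the range of the WT-USP21 libraries of the other lines. For Gsta4 the sum was lower by -0.59 ± 0.10 (adjusted p = 0.00940), but with the WT-USP21 libraries alone line 1 was above the rest, by 0.45 (adjusted p = 0.174). Gsta2 did not pass, at -1.29 ± 0.43 (adjusted p = 0.0683).

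**Figure D2:**
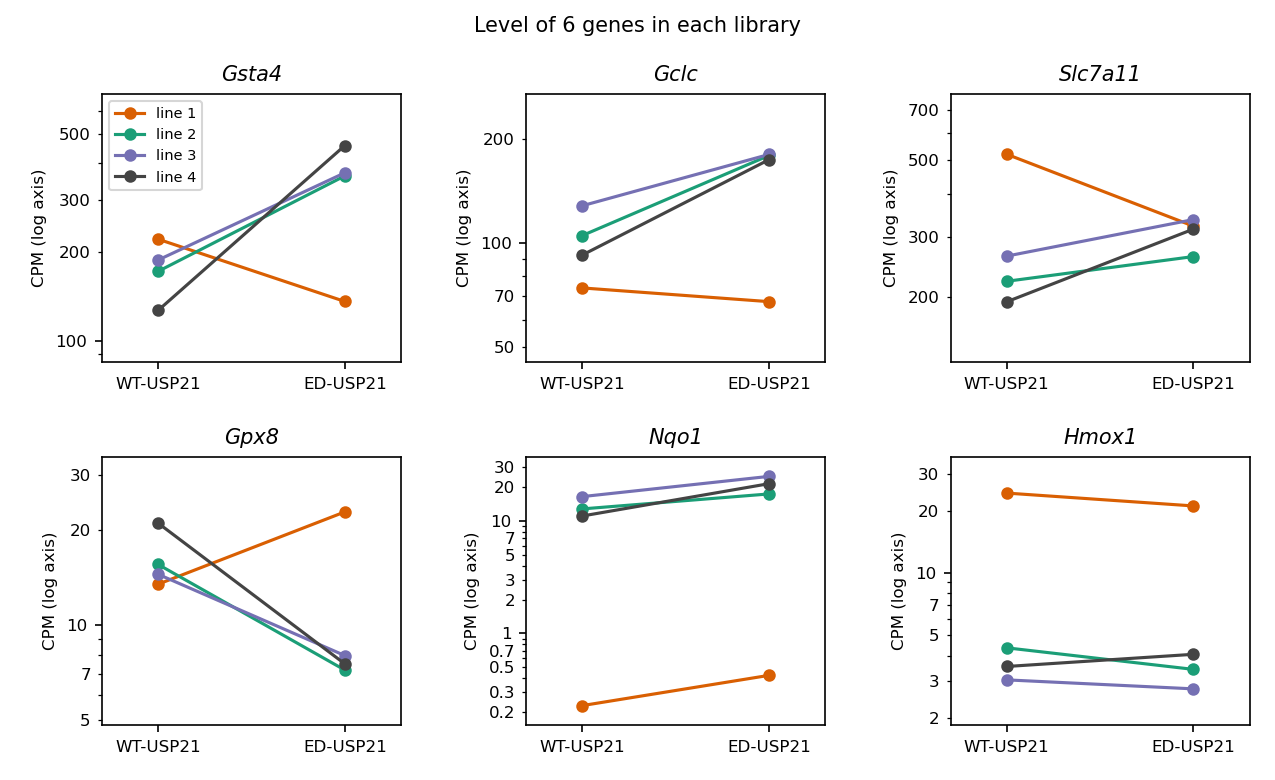
Level in CPM (vertical log axis) of Gsta4, Gclc, Slc7a11, Gpx8, Nqo1 and Hmox1 in each library, with a line joining the WT-USP21 and ED-USP21 libraries of 1 cell line. Gsta4 of lines 2 to 4 rises from 127 to 188 CPM with WT-USP21 to 362 to 459 CPM with ED-USP21 while line 1 falls, and Nqo1 and Hmox1 of line 1 lie far from the other lines with either construct.

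Among mu-class transferases, line 1 had less RNA of 4 genes, and in 3 of these its construct difference was called as differing from the other lines. Over all genes, 13% were called lower in the level of line 1, and 3.19% had a construct difference called higher there. Gstm1 was at 25.9, 82.7, 81.8 and 64.8 CPM with WT-USP21 in lines 1 to 4 and at 21.0, 104, 120.2 and 116 CPM with ED-USP21. Both libraries of line 1 were below the other 6, by a log2 difference of -1.98 ± 0.12 (4.05-fold; adjusted p = 0.000252). Lines 2 to 4 were lower with WT-USP21 by -0.57 ± 0.10 (adjusted p = 0.0323). Gstm4 was at 0.446 CPM with WT-USP21 and 0.0963 CPM with ED-USP21 in line 1, against 2.48, 3.55 and 2.14 CPM and 2.998, 3.89 and 3.04 CPM in lines 2 to 4. Its deficit in line 1 was -3.49 ± 0.38 (adjusted p = 0.00180), on 51 reads. The within-line differences of Gstm4 were 1.98 in line 1 and -0.27, -0.13 and -0.50 in the others, and this contrast of 2.50 ± 0.46 was called (adjusted p = 0.0337).

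Gstm2 and Gstm7 had the same arrangement as Gstm4, with line 1 at least 2-fold higher with WT-USP21. Gstm2 read 5.93, 6.88, 10.02 and 6.06 CPM with WT-USP21 and 2.09, 7.23, 10.2 and 7.87 CPM with ED-USP21. Lines 2 to 4 gave no call between constructs (-0.15 ± 0.11; adjusted p = 0.586), whereas line 1 differed from them by 1.66 ± 0.24 (adjusted p = 0.0202). Its level in line 1 was lower by -1.01 ± 0.27 (adjusted p = 0.0354). For Gstm7, with an ARE core in the promoter printed above, WT-USP21 libraries held 1.57, 1.54, 2.15 and 1.22 CPM and ED-USP21 libraries 0.530, 2.59, 3.08 and 2.57 CPM. The construct difference in line 1 exceeded that of lines 2 to 4 by 2.34 ± 0.43 (adjusted p = 0.0337), and its summed level there was lower by -1.05 ± 0.31 (adjusted p = 0.0492); the last call was lost with DESeq2 size factors. Gstm1 and Gstm2 share 23.1% and 9.36% of their 50-base stretches with other genes, and Gstm4 and Gstm7 share none.

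The theta, omega, kappa, zeta and microsomal transferases were mixed. Gstt1, a theta-class enzyme active on small halogenated compounds, was higher in line 1, at 13.3 CPM with WT-USP21 and 8.10 CPM with ED-USP21, than in lines 2 to 4, at 2.32, 3.20 and 1.82 CPM and at 3.86, 4.05 and 2.81 CPM. All 6 other libraries were below both of line 1, by a log2 difference of 1.86 ± 0.25 (3.55-fold; adjusted p = 0.00361). Line 1 was higher with WT-USP21 and the others lower, a contrast of 1.27 ± 0.27 (adjusted p = 0.0487). Gstt2 had 9 reads in line 1, none of them with ED-USP21, against 0.407, 0.273 and 0.244 CPM with WT-USP21 and 0.419, 0.452 and 0.373 CPM with ED-USP21 in lines 2 to 4; it too was tested only through those lines, so no test of its level is given.

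Of the omega-class genes, Gsto1, which encodes an enzyme that reduces dehydroascorbate and mixed disulfides, was lower in line 1 and Gsto2 higher. Gsto1 stood at 401, 564, 694 and 579.7 CPM with WT-USP21 and at 305, 625, 837 and 747 CPM with ED-USP21, with both line 1 libraries lowest (-0.90 ± 0.16; adjusted p = 0.00926). Its construct difference in line 1 was above that of the other lines by 0.66 ± 0.13 (adjusted p = 0.0370). Gsto2 was at 3.40, 1.85, 2.98 and 1.73 CPM and at 4.82, 2.17, 2.69 and 2.92 CPM with WT-USP21 and ED-USP21, 0.84 ± 0.25 higher in line 1 (adjusted p = 0.0493). That Gsto2 call was lost without a filter on low counts and with limma.

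Gstk1, the mitochondrial and peroxisomal transferase, was at 0.326 and 0.222 CPM in line 1 and at 1.02 to 1.52 CPM in lines 2 to 4 (-2.21 ± 0.36; adjusted p = 0.00689). Gstz1, which acts in tyrosine breakdown, was at 32.2 and 34.8 CPM in line 1 and at 42.4 to 47.9 CPM in lines 2 to 4 (-0.39 ± 0.09; adjusted p = 0.0207). For both genes the libraries of line 1 were below all others, and neither passed a test of the constructs. Mgst1, a membrane-bound transferase and peroxidase whose promoter match is printed above, was at 21.1, 30.7, 41.8 and 21.9 CPM with WT-USP21 and at 17.5, 42.9, 55.4 and 37.9 CPM with ED-USP21. It was lower with WT-USP21 in lines 2 to 4 (-0.55 ± 0.09; adjusted p = 0.0259), line 1 differed from that by 0.82 ± 0.18 (adjusted p = 0.0495), and the level in line 1 was lower by -0.95 ± 0.28 (adjusted p = 0.0462); limma and a robust estimate of the spread lost the level call.

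The related Mgst2 and Mgst3 passed no test. Mgst2 was at 79.9, 73.8, 64.0 and 63.8 CPM with WT-USP21 and at 75.1, 85.4, 79.8 and 86.6 CPM with ED-USP21. For Mgst3 the values were 121, 93.4, 84.8 and 68.9 CPM and 95.7, 118, 118 and 141 CPM. In lines 2 to 4 neither gene's constructs overlapped, but the differences of -0.32 ± 0.07 and -0.61 ± 0.13 missed the threshold (adjusted p = 0.0509 and 0.0598). Gstm5 ranged over 23.3 to 37.1 CPM and Gstt3 over 1.02 to 3.51 CPM without a call. Gstm3 had 63 reads over all libraries and Gstm6 11. Gstp1 and Gstp2, the pi-class genes, had 2 and 0 reads; 0 reads in a library allows up to 3 reads, which is 0.0289 to 0.0405 CPM here by counting error alone. These share 62.3% and 72.6% of their 50-base stretches with other genes. Of 17 transferases with enough reads in line 1 itself, 12 were called in its level, 2 higher and 10 lower. Over all genes 18.6% were called higher there and 13% lower. In lines 2 to 4, 5 of 20 transferases were called, all lower with WT-USP21, where 2.06% of all genes were. The 20 include Gstm3, which had enough reads there only with ED-USP21.

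Glutathione synthesis was split in line 1: the catalytic subunit of its rate-limiting ligase was low and the other 3 genes were high. Gclc, that catalytic subunit, was at 74.1, 105, 128 and 92.3 CPM with WT-USP21 and at 67.6, 179, 180.5 and 174 CPM with ED-USP21. Both libraries of line 1 were the lowest, by -0.96 ± 0.12 (2.02-fold; adjusted p = 0.00313). The WT-USP21 libraries of lines 2 to 4 were below the ED-USP21 libraries (-0.72 ± 0.09; adjusted p = 0.0144), and line 1 differed from this by 0.86 ± 0.18 (adjusted p = 0.0433). Gclm, the modifier subunit of the same ligase, was at 105, 66.3, 81.9 and 70.7 CPM with WT-USP21 and at 114, 79.9, 82.7 and 88.5 CPM with ED-USP21. It was higher in line 1 by 0.53 ± 0.10 (1.40-fold; adjusted p = 0.0119), opposite to Gclc, and no construct test called it (lines 2 to 4: -0.20 ± 0.08; adjusted p = 0.245).

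Gss, the synthetase that adds glycine, was at 90.01, 47.7, 42.5 and 41.7 CPM with WT-USP21 and at 59.0, 49.4, 50.7 and 54.4 CPM with ED-USP21. Line 1 was highest (0.66 ± 0.08; adjusted p = 0.00259), and its construct difference exceeded that of the other lines by 0.84 ± 0.16 (adjusted p = 0.0337). Slc7a11, the cystine importer that supplies cysteine for glutathione, was at 520.2, 223, 263 and 194 CPM with WT-USP21 and at 322, 263, 336 and 315 CPM with ED-USP21. The WT-USP21 library of line 1 stood above all others, while its ED-USP21 library lay among those of lines 3 and 4. The summed level of line 1 was higher by 0.69 ± 0.14 (adjusted p = 0.0135), and the construct difference by 1.12 ± 0.19 (adjusted p = 0.0256). With the ED-USP21 libraries alone the higher levels of Gss and Slc7a11 in line 1 were no longer called. In lines 2 to 4 all 4 genes of this group were negative and 1, Gclc, was called, where 4.57% of all genes were called.

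**Figure D3:**
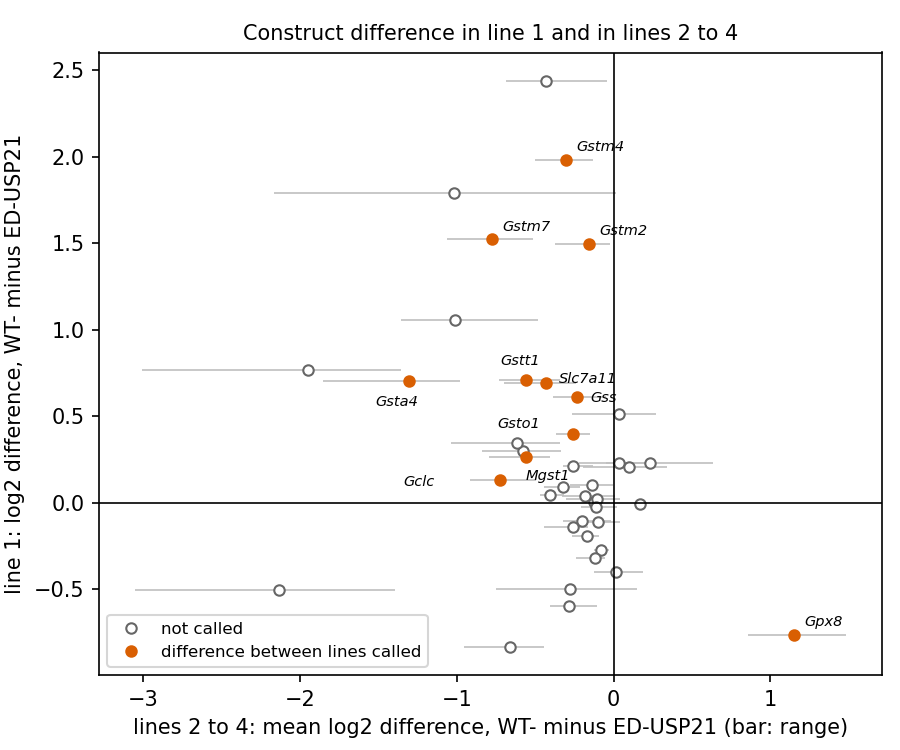
Construct difference (log2, WT-USP21 minus ED-USP21) in line 1 (vertical axis) against the mean of lines 2 to 4 (horizontal axis; bars give the range of the 3 lines) for the 41 tested members. The 11 filled points are those whose difference between line 1 and lines 2 to 4 was called; 10 lie in the upper left, higher with WT-USP21 in line 1 alone, and Gpx8 lies at the lower right.

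Of the glutathione reductase and peroxidases, Gsr and Gpx8 were called. Gsr, which regenerates reduced glutathione with NADPH, was at 563, 355, 356 and 346 CPM with WT-USP21 and at 562, 377, 397 and 378 CPM with ED-USP21. Line 1 was above all 6 other libraries by 0.65 ± 0.08 (1.53-fold; adjusted p = 0.00286), with no construct difference of its own (0.00). Gpx8, a peroxidase of the endoplasmic reticulum, had the opposite pattern to the other 10 genes called in that contrast, at 13.5, 15.6, 14.5 and 21.1 CPM with WT-USP21 and at 22.9, 7.19, 7.99 and 7.52 CPM with ED-USP21. It was higher with WT-USP21 in lines 2 to 4 (1.16 ± 0.13; adjusted p = 0.0109) and lower with it in line 1, a contrast of -1.92 ± 0.25 (adjusted p = 0.0172). Its summed level was higher in line 1 by 0.58 ± 0.16 (adjusted p = 0.0402), but with the WT-USP21 libraries alone line 1 was lower, by -0.34 (adjusted p = 0.342).

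The other peroxidases passed no test. Gpx1, the cytosolic enzyme, was at 177, 162, 168 and 161 CPM with WT-USP21 and at 178, 148, 149 and 141 CPM with ED-USP21; line 1 was highest, by 0.23 ± 0.08 (adjusted p = 0.0820). Gpx4, which reduces lipid hydroperoxides and protects cells from ferroptosis, was at 318, 269.5, 256 and 261 CPM and at 311, 268, 321 and 307 CPM, and shares 61.7% of its 50-base stretches with other genes. Gpx3, the secreted enzyme, was at 1.36, 2.07, 2.05 and 1.75 CPM and at 1.16, 1.90, 1.31 and 1.82 CPM. Gpx2 had 9 reads in all. For Gpx3 and Gpx4 the libraries of line 1 overlapped those of the other lines.

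Of the 4 genes of the thioredoxin system, 2 were called in the level of line 1, where 31.6% of all genes were, and none between constructs. Txn1, thioredoxin itself, was at 243, 411, 389 and 373 CPM with WT-USP21 and at 320.0, 361, 396 and 407 CPM with ED-USP21, and was lower in line 1 (-0.43 ± 0.08; 1.38-fold; adjusted p = 0.0130). Srxn1, the sulfiredoxin that repairs overoxidised peroxiredoxins, was at 31.9, 28.1, 31.8 and 28.2 CPM and at 48.2, 35.8, 34.1 and 37.3 CPM, and was higher in line 1 by 0.37 ± 0.09 (adjusted p = 0.0268). It was lower with WT-USP21 in each of the 4 lines, and the blocked difference of -0.36 ± 0.09 was not called by edgeR (adjusted p = 0.332) but was by DESeq2 (adjusted p = 0.0445). Prdx1, the cytosolic peroxiredoxin, was at 611, 645, 653 and 616 CPM with WT-USP21 and at 697, 688, 727 and 738 CPM with ED-USP21, lower with WT-USP21 in each line but not called (-0.18 ± 0.06; adjusted p = 0.479). Txnrd1, thioredoxin reductase, was at 286, 293, 344 and 305 CPM and at 347, 311, 352 and 333 CPM (-0.13 ± 0.06; adjusted p = 0.669). Neither of the last pair differed in line 1 beyond its error.

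The classical NRF2 targets Nqo1 and Hmox1 stood at opposite extremes in line 1. Nqo1, a quinone reductase widely used as a readout of NRF2, was at 0.228, 12.8, 16.4 and 11.05 CPM with WT-USP21 and at 0.424, 17.3, 24.8 and 21.4 CPM with ED-USP21. Line 1 held 65 reads against 2570 to 3875 in each other line, a log2 difference of -5.65 ± 0.31 (53.1-fold; adjusted p = 0.000203). Every line had less Nqo1 with WT-USP21. The blocked difference of -0.70 ± 0.12 was not called over 4 lines by edgeR (adjusted p = 0.205) but was by DESeq2 (adjusted p = 0.000631), and the -0.66 ± 0.11 of lines 2 to 4 was called (adjusted p = 0.0276). Hmox1, the haem-degrading enzyme, was at 24.3, 4.36, 3.05 and 3.54 CPM with WT-USP21 and at 21.0, 3.43, 2.76 and 4.06 CPM with ED-USP21. Both line 1 libraries were above all others, by 2.70 ± 0.18 (6.41-fold; adjusted p = 0.000336), and the blocked construct difference was not called (0.13 ± 0.12; adjusted p = 0.860). Akr1b8, an aldo-keto reductase, was level in line 1 (0.04 ± 0.09; adjusted p = 0.719), at 128, 115, 108 and 102 CPM with WT-USP21 and 124, 144, 146 and 141 CPM with ED-USP21. It was lower with WT-USP21 in lines 2 to 4 (-0.40 ± 0.06; adjusted p = 0.0201).

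**Figure D4:**
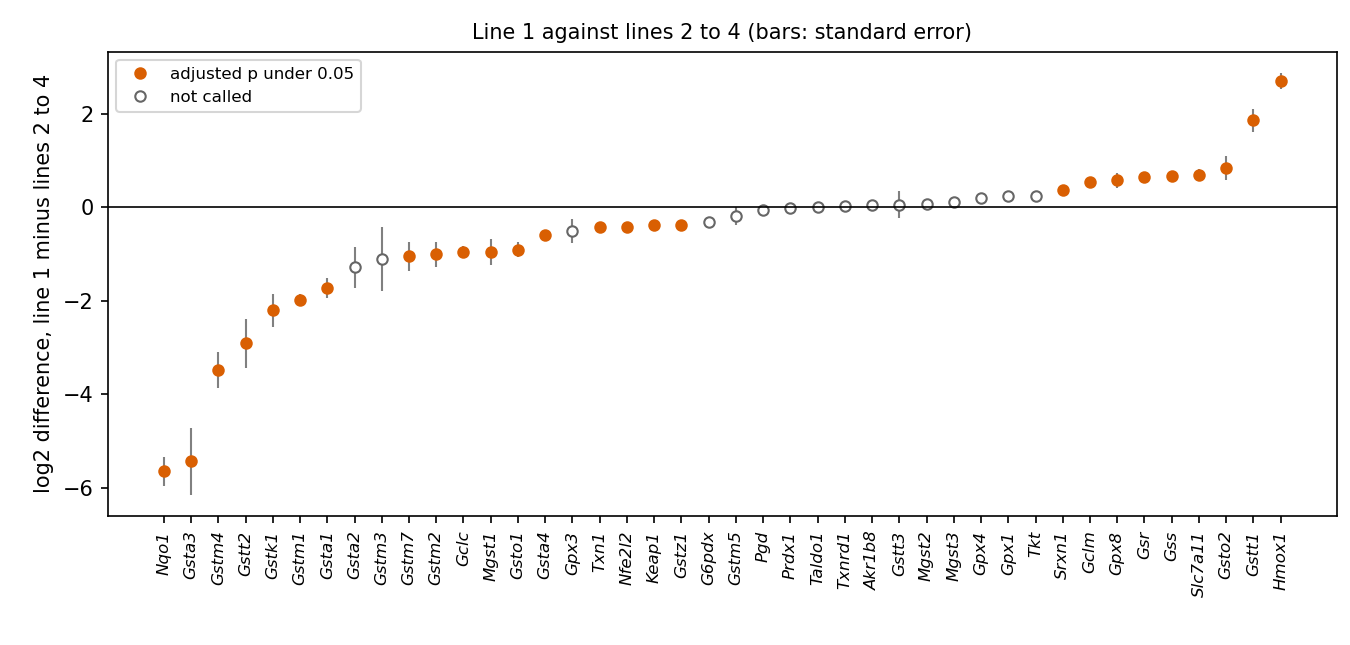
Log2 difference of line 1 from lines 2 to 4, libraries of a line summed (vertical axis), for the 42 tested members in order of size; bars are standard errors and filled points are genes with an adjusted p under 0.05. Nqo1 (-5.65) is lowest and Hmox1 (2.70) highest, with 17 members called lower and 9 higher; Gsta3, Gstm3 and Gstt2 were tested only through their reads in lines 2 to 4.

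The NRF2 gene and that of its inhibitor were both lower in line 1. Nfe2l2 was at 223, 251, 277 and 248 CPM with WT-USP21 and at 192, 312, 303 and 310.3 CPM with ED-USP21, and both line 1 libraries lay below the other 6 (-0.41 ± 0.09; 1.37-fold; adjusted p = 0.0175). Its lower level with WT-USP21 in lines 2 to 4 was not called (-0.25 ± 0.06; adjusted p = 0.0922). Keap1 was at 38.7, 59.0, 52.4 and 58.0 CPM and at 48.4, 62.1, 61.8 and 60.2 CPM, also lowest in line 1 (-0.39 ± 0.09; 1.35-fold; adjusted p = 0.0214). RNA levels give neither the amount of NRF2 protein nor its activity.

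The pentose phosphate enzymes, which regenerate NADPH and carry out its linked sugar exchanges, had no call in any of the tests. G6pdx, the first enzyme, was at 73.3, 91.7, 89.8 and 76.5 CPM with WT-USP21 and at 68.4, 91.7, 97.9 and 92.9 CPM with ED-USP21, lowest in line 1 but not called (-0.31 ± 0.10; adjusted p = 0.0595). Pgd, the next NADPH-producing step, was at 106, 108, 117 and 104 CPM and at 117, 122, 132 and 141 CPM, lower with WT-USP21 in each line (-0.23 ± 0.07; adjusted p = 0.447). Tkt, transketolase, was at 889, 753, 792 and 704 CPM and at 905, 741, 915 and 782 CPM, and Taldo1 ranged from 128 to 158 CPM.

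Other genes of the response were read from 4 lists. Over all genes, 4.57% were called in lines 2 to 4 (2.51% higher and 2.06% lower with WT-USP21). A construct difference higher in line 1 was called for 3.19% of all genes. In the level of line 1, 31.6% were called (18.6% higher and 13% lower). Of 22 further NRF2 targets tested, 6 were called lower with WT-USP21 in lines 2 to 4 and 0 higher, with a median of -0.30. Aldh3a1, an aldehyde dehydrogenase, was lower by -0.90 ± 0.14 (adjusted p = 0.0259), Blvrb, a biliverdin reductase, by -0.45 ± 0.08 (adjusted p = 0.0314) and Ephx1, the microsomal epoxide hydrolase, by -0.54 ± 0.09 (adjusted p = 0.0323). Aldh3a1 and Ephx1, with the transporter Abcc4, were also the 3 of 22 whose construct difference was called higher in line 1. In the level of line 1, 4 of the 22 were higher, near the share of all genes, and 6 lower (45.5% together). Abcc3, an exporter of conjugates, had the smallest p and was lower in line 1 (-1.73 ± 0.10; adjusted p = 0.000260), as were Ephx1 (-1.11 ± 0.13; adjusted p = 0.00206) and Aldh3a1 (-1.75 ± 0.20; adjusted p = 0.00209).

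Of 9 other regulators, 1 was called in lines 2 to 4 and it was higher with WT-USP21: Bach2, a repressor that binds MAF recognition sites, at 1.09, 2.58 and 1.53 CPM with WT-USP21 and 0.230, 0.634 and 0.283 CPM with ED-USP21 (2.23 ± 0.25; adjusted p = 0.0113). Line 1 had 0.283 and 0.241 CPM of it. In the level of line 1, 4 regulators were higher and 1, Bach2, lower; Sqstm1, which encodes the p62 protein that competes for KEAP1, was higher by 0.72 ± 0.08 (adjusted p = 0.00189) and Mafk by 0.84 ± 0.11 (adjusted p = 0.00361). Of 22 other antioxidant genes, 0 were higher and 2 lower in lines 2 to 4: Txnip, the thioredoxin inhibitor (-0.51 ± 0.06; adjusted p = 0.0133), and Sesn2 (-0.33 ± 0.06; adjusted p = 0.0393). Txnip was at 76.2 CPM with WT-USP21 and 31.8 CPM with ED-USP21 in line 1, so that line 1 differed from the other lines by 1.78 ± 0.13 (adjusted p = 0.0106). The 22 had 4 higher and 2 lower in the level of line 1, which is 27.3%, below the 31.6% of all genes. The share called in that test was 55.6% for the 9 regulators and 60% for the genes of glutathione turnover that follow. Among 10 genes of glutathione turnover, 6 were higher in line 1 and 0 lower, with Cbs and Cth, the transsulfuration enzymes, at 1.68 ± 0.16 and 1.16 ± 0.16 (adjusted p = 0.00105 and 0.00412) and Chac1, which degrades glutathione, at 1.61 ± 0.10 (adjusted p = 0.000293). In lines 2 to 4, 9 of these were tested; Ggct was higher with WT-USP21 (0.99 ± 0.18; adjusted p = 0.0393), and Cth (-0.48 ± 0.07; adjusted p = 0.0233) and Chac1 (-0.35 ± 0.07; adjusted p = 0.0488) were lower.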

How the data were processed

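RNA-seq libraries of 4 cell lines with WT-USP21 and ED-USP21 were taken as deposited, as raw counts of reads per gene. The authors made these counts with CASAVA, STAR, TopHat, Cufflinks and HTSeq on mm9, per the submitters' processing notes; versions, roles, strand setting and read length are not given in the sources used here. Counting without known strand and reads shared between paralogs can shift single genes; sharing was taken as 50-base stretches found in transcripts of other genes (GENCODE M21). Reads counted as lying in no gene were 11.4% to 20.6% of these and the gene counts together, per library. All rows naming no gene were left out, and any others are not in this share.

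CPM were computed from the counts with TMM scaling. Tests used edgeR 4.0.16 (quasi-likelihood, default low-count filter) in R 4.3.3 over all genes; log2 CPM used a prior count of 2, and each SE is the log2 difference over the square root of F. Depth was 72828184 to 107551210 gene counts per library. For several members with few reads the text gives the reads. The p-values measure the spread between lines, each sequenced once with each construct. Alternatives were DESeq2 1.42.0, limma 3.58.1, other filters and scaling, and leaving out lines. The methods were also run on simulated counts, in which the construct difference did not vary between lines beyond the change put in. That run does not bear on how the calls depend on single lines.

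The line number pairs libraries because both come from 1 cell line; deviations from group means correlated across genes at 0.770, 0.503, 0.468 and 0.347 in lines 1 to 4, and line 4 correlated more (0.474) with a library of another line. The members, gene lists and the contrast with line 1 were chosen with earlier results of these data known. Values in every library are given for members called in a test and up to 3 further members of each role group with the smallest p; called genes of other lists are named up to 3 per list and test. Mafg stands on more than 1 row of the files and was not used. A further allele that all libraries share is not reported here.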

Additional observations from a re-analysis of the deposited data

Results flagged for a closer look

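Among groups of 4 libraries of 1 construct, 11 of 82 had a library far from the other 3 by Dixon's criterion. For independent groups chance flags 1 in 20, or 4.1, but both groups of a gene come from the same 4 lines. The share over all genes was not computed, so the count is not a result about the members. Both libraries of line 1 lay above all 6 of lines 2 to 4 for 24.2% of all genes and below them for 22.5%. In all 11 it was the library of line 1. It was high for Gstt1 with WT-USP21 (13.3 CPM), Gss with WT-USP21 (90.01 CPM), Gsr with WT-USP21 (563 CPM) and with ED-USP21 (562 CPM), Gpx8 with ED-USP21 (22.9 CPM), and Hmox1 with WT-USP21 (24.3 CPM) and with ED-USP21 (21.0 CPM). It was low with ED-USP21 for Gstm1 (21.0 CPM), Gclc (67.6 CPM), Nfe2l2 (192 CPM) and Keap1 (48.4 CPM).

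The construct difference of 11 members differed between line 1 and lines 2 to 4 by a direct test (edgeR, adjusted p under 0.05), in which 6.27% of all genes were called. Without line 2 none of the members were called, and without line 4 the count was 5 higher and 1 lower. Line 1 exceeded lines 2 to 4, on the log2 scale, by 2.50 for Gstm4, 2.34 for Gstm7, 2.003 for Gsta4, 1.66 for Gstm2, 1.27 for Gstt1, 1.12 for Slc7a11, 0.86 for Gclc, 0.84 for Gss, 0.82 for Mgst1 and 0.66 for Gsto1. It was below them by -1.92 for Gpx8. In each of the 11 genes, line 1 had the opposite sign to each of lines 2, 3 and 4. The 11 were picked by this difference, so opposite signs are largely built in, and the share over all called genes was not computed. Some signs rest on values close to zero, as for Gstm2 in lines 2 and 3 (-0.07 and -0.02) and Gss in line 2 (-0.05).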

How the results depend on the processing

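Scaling with DESeq2's size factors and a robust spread estimate kept every member count in each test within 1.5 times. Over 4 lines, leaving out 1 line in turn gave 0 to 1 members higher and 0 to 6 lower without the block, and 0 to 1 higher and 0 to 8 lower with the replicate block, the upper values being without line 1; the replicate block itself left 0 higher and 0 lower. DESeq2 with the block called 3 lower, and over all genes 315 higher and 91 lower where edgeR called 4 and 0. In the level of line 1, a minimum mean of 5 CPM gave 5 higher, and the WT-USP21 libraries alone gave 8 lower; leaving out 1 of lines 2 to 4 gave 6 to 12 higher and 12 to 19 lower. There Gpx8 (-0.34) and Gsta4 (0.45) reversed with the WT-USP21 libraries alone; the cause was not tested. For the difference between line 1 and the others, leaving out 1 of lines 2 to 4 gave 0 to 14 higher and 0 to 1 lower, with 5 higher without line 4 and 0 without line 2. Over all genes DESeq2 called 840 higher and 785 lower, against 516 and 499. In lines 2 to 4, 14 were lower with no filter and 16 with DESeq2. Leaving out a line there gave 0 to 1 higher and 0 to 14 lower, and with no replicate block 1 was higher and 6 lower. Where calls over all genes are not given beside a member count, a rise in it may only follow a rise in calls over all genes. Such a count is not a result about the members. Among single-gene values under all alternatives, 447 kept their direction and side of the threshold, 73 lost the call, 6 gained it and 2 reversed. The 2-fold counts within lines did not change with a prior count of 0.5 or other size factors. Few reads limit Gstm3, Gstm6, Gstp1, Gstp2 and Gpx2, and both the level and the construct difference of Gsta3 and Gstt2 in line 1. Gstp1 and Gstp2 share 62.3% and 72.6% of their 50-base stretches with other genes, and whether this lowered their counts was not tested.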

Other observations

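Gclc, Gsta4, Gsta1 and Gsta2 lie near each other in the mouse genome, and the genes between them were looked at after their values had been seen. From Gclc to Gsta2, RefSeq (GRCm38.p6) lists 12 protein-coding genes, of which 8 were tested in lines 2 to 4. Gclc, Gsta4, Gsta1 and Gsta2 themselves, which prompted the look, were called lower with WT-USP21. Of the other 4 tested, 1 was called lower, where 2.06% of all genes were. It was Cilk1, a ciliary kinase listed under its older symbol Ick, at -0.78 on the log2 scale (edgeR, adjusted p = 0.0174). Its construct difference in line 1 exceeded that of lines 2 to 4 by 1.42 (adjusted p = 0.0208). Elovl5, next to Gclc, did not pass (-0.07, adjusted p = 0.601), and neither did Fbxo9 (-0.26, adjusted p = 0.0780) or Gm10639 (-1.89, adjusted p = 0.223).

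Prdx4, the peroxiredoxin of the endoplasmic reticulum, was at 46.1 CPM with WT-USP21 and 63.6 CPM with ED-USP21 in line 1, and at 0.333 to 0.940 CPM in the 6 libraries of lines 2 to 4. The log2 difference was 6.26 ± 0.26 (edgeR, adjusted p = 0.000106), further from zero than that of any of the 42 members tested.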
